A study of Mus musculus with 27 samples.

Results

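The replication-dependent histone genes are described here: the protein-coding genes of the Hist1 to Hist4 clusters, chosen by gene type and symbol in the GENCODE M21 annotation and not by any measured value. The annotation held 67 such genes, of which 64 were among the 43346 genes of the deposited table. Hist2h2bb, Hist1h2bm and Hist1h2bh were the 3 without a row. The 64 comprised 6 linker histone H1 genes, 18 H2A, 15 H2B, 12 H3 and 13 H4 genes. Of these, 52 lie in the Hist1 cluster on chromosome 13, 9 in Hist2 on chromosome 3, 2 in Hist3 on chromosome 11 and 1 in Hist4 on chromosome 6.

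RNA was sequenced from hepatocytes, the main cell type of the liver, of female mice aged 12 weeks. Inbred mice of 9 strains without a stated treatment were compared, each with 3 libraries that the labels call biological replicates: C57BL/6J, 129S1/SvImJ, A/J, CAST/EiJ, DBA/2J, NOD/ShiLtJ, NZO/HlLtJ, PWK/PhJ and WSB/EiJ. The wider study related expression to histone modifications and DNA methylation in the same mice. Libraries were made from RNA selected on oligo-dT beads, which capture polyadenylated transcripts.

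Replication-dependent histone genes supply the core histones H2A, H2B, H3 and H4, which form the nucleosome, and the linker histone H1, which binds the DNA between nucleosomes. Most of them have no introns, are transcribed mainly in S phase, and end their mRNA in a conserved stem-loop that is bound by the protein SLBP in place of a poly(A) tail. Hepatocytes of the adult liver divide rarely, and some clustered histone genes are known to make polyadenylated transcripts as well, often from a site beyond the stem-loop.

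The stem-loops and downstream poly(A) signals below are shown because they are the 2 alternative ends of these transcripts. They were read 5′ to 3′ from the GENCODE M21 transcript sequences (GRCm38). Capitals mark the 16 letters of the stem-loop, or the hexamer AATAAA or ATTAAA found within 50 bases of the end of the annotated transcript. In Hist4h4 the hexamer lies 3 bases from that end. The hexamers are matches of letters, and their use was not measured.

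Hist1h1c stem-loop: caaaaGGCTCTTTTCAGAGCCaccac
Hist3h2a stem-loop: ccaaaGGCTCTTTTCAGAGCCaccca
Hist2h2aa2 stem-loop: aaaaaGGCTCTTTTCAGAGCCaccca
Hist2h2ac stem-loop: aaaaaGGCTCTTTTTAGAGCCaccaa
Hist1h2bk stem-loop: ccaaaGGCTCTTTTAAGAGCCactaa
Hist1h4i stem-loop: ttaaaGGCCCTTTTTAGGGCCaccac
Hist4h4 stem-loop: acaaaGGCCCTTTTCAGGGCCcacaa
Hist1h1c poly(A) signal: gtgtatgcttctAATAAAaagcgtttagtt
Hist3h2a poly(A) signal: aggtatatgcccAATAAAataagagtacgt
Hist1h4i poly(A) signal: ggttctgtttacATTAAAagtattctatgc
Hist4h4 poly(A) signal: tagaggagatgaAATAAAtac

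A loose stem-loop form of 16 letters, which fixes the paired G and C at the foot of the stem, the T and A pair next to the loop and 2 T letters of the loop and lets the others vary, was found on the transcript strand in 44 of the 64 genes. The same loose form occurs in 7.02% of the 21951 protein-coding genes of the annotation. The most common stem-loop, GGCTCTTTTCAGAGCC, was in 24 of the 64 and in 28 protein-coding genes in all. The remaining models either stop near the stop codon or run along a different 3′ end without the stem-loop, so a missing match describes the annotated model only.

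Library totals ran from 17015956 to 35078511 estimated counts, and 1 count in a library was worth 0.0253 to 0.0515 CPM (counts scaled to the library total and the TMM factor). The 64 histone genes together took 0.00477% to 0.0299% of a library's counts. Hepatocyte markers such as Alb and Ttr were present in every strain: all 10 on the list were tested, and their summed level had its lowest mean, 113000 CPM, in CAST/EiJ and its highest, 265000 CPM, in A/J. Plain library totals in place of TMM factors shifted the median of all tested genes against C57BL/6J by up to 0.40 on the log2 scale, in NZO/HlLtJ. The p-values below measure the spread between 3 libraries of a strain. In these bulk samples, a lower level cannot be told apart from fewer cells that carry the transcript.

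Most clustered histone genes were at or near 0 in the polyadenylated RNA. With detection set at 10 or more estimated counts in every library of at least 1 strain, 17 of the 64 genes (26.6%) were detected, against 12399 of the 21474 protein-coding genes in the table (57.7%). Of these 17, 8 were detected in all 9 strains and 9 in fewer. By class, 2 of 6 H1 genes, 4 of 18 H2A, 5 of 15 H2B, 1 of 12 H3 and 5 of 13 H4 genes were detected. At the other end, 41 genes never exceeded 10 counts in any library, and Hist2h2ab, Hist1h4f, Hist1h2ba and Hist1h2aa were under 1 count everywhere. A threshold of 1 count in a single library would take in 60 genes, so the number detected depends on where the limit is set.

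The 3 genes just above the limit were Hist1h1e, Hist1h4j and Hist1h4k, all in PWK/PhJ, whose lowest library there held 10.74, 12.34 and 13.96 estimated counts. Just below it, Hist1h4n and Hist2h4 reached 9.61 and 9.0 counts in the lowest library of NZO/HlLtJ, and Hist2h3c1 reached 6.98 in PWK/PhJ. These 6 genes lay within a few counts of the limit.

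A few genes carried nearly all the histone signal. Hist1h2bc (an H2B gene) held 36.2% of the 112787 estimated counts assigned to the 64 genes, Hist1h1c (H1.2) 21.1%, Hist2h2aa2 (an H2A gene) 19.5% and Hist4h4 (an H4 gene) 9.5%. The 17 detected genes held 98.9%. Per kilobase of exon and averaged over the 27 libraries, the highest levels were those of Hist2h2aa2 at 55.2 CPM per kb, Hist1h2bc at 44.8, Hist1h1c at 19.7 and Hist2h2aa1 at 9.73. Hist4h4, with a long model, was at 4.79 CPM per kb.

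**Figure D1:**
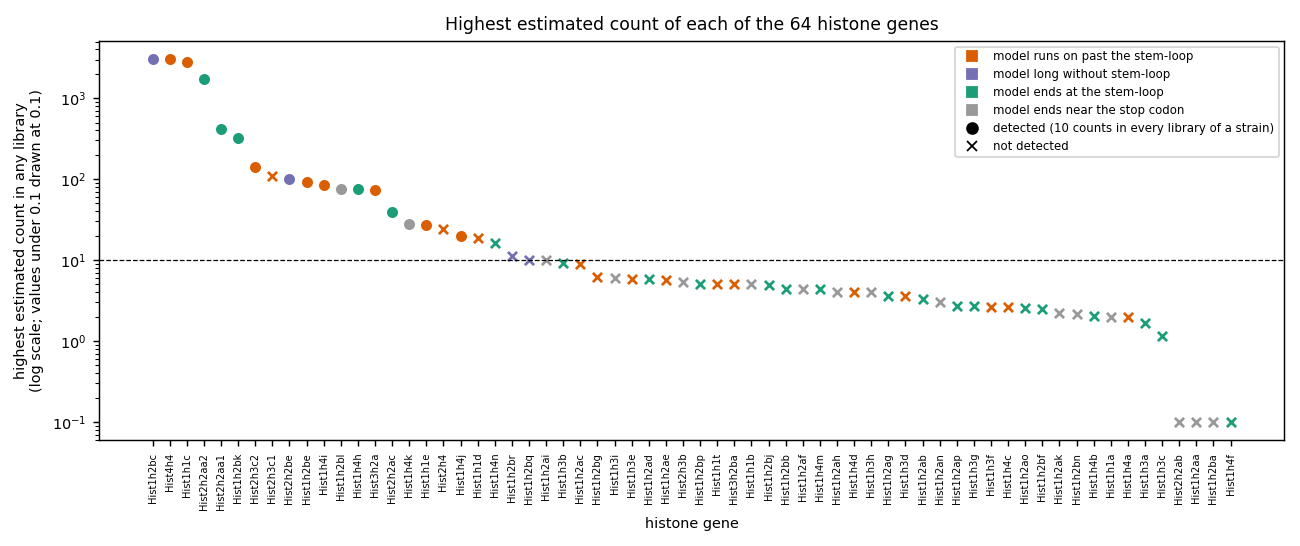
The highest estimated count reached in any library (vertical axis, log scale) is plotted for each of the 64 histone genes, in descending order. Colour gives the type of annotated 3′ end, circles mark the 17 detected genes and crosses the others, and the dashed line is at 10 counts. Values run from 3052.75 for Hist1h2bc down to under 1 for the last 4 genes, with values under 0.1 drawn at 0.1.

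The detected genes were found with every type of annotated 3′ end. Of the 22 genes whose model runs on at least 100 bases past the stem-loop, 8 were detected, and the median of their highest counts was 13.7. Of the 22 whose model ends at the stem-loop, 5 were detected (median highest count 4.38), and of the 16 whose model ends near the stop codon, 2 (median 4.03). Hist1h2bc and Hist2h2be were the 2 detected of 4 genes with a long model that lacks the stem-loop. A poly(A) signal stood at the end of a model running past the stem-loop in 12 genes, of which 6 were detected. These are counts from the annotated models, and no test was made of them.

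Most deposited values of these genes were not whole. Of their 1728 values, 1362 (78.8%) were not whole numbers, against 14.7% of all values in the table. Among the 1492 values above 0, 730 were under 0.01 of a count. Values were non-whole in all 27 libraries for 31 genes and whole in all for 7: Hist2h2be, Hist2h4, Hist1h4d, Hist1h1t, Hist1h1b, Hist1h1a and Hist3h2ba. A median of 49.6% of the 50-base windows in a histone gene's transcripts also occurred in another gene. Genes with little shared sequence, such as Hist4h4, also had non-whole values. The share of windows shared is given with the genes below.

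After the filter on low counts 19 genes remained: the 17 detected genes, Hist1h4n and Hist2h4. All 19 differed among the 9 strains in edgeR's quasi-likelihood test, with adjusted p from 6.08e-14 (Hist4h4) to 0.0252 (Hist2h4), where 74.2% of all 14482 tested genes were called. A gene that passed the filter only through 1 high strain had to differ, so this count is not read further. The call of Hist1h4k was lost without PWK/PhJ replicate 2 (edgeR adjusted p 0.0739), and that of Hist2h4 without WSB/EiJ replicate 2 (0.0536). In 8 of the 19 the libraries of the highest strain lay above all 24 others (14.7% of all tested genes). The highest strain was CAST/EiJ for Hist1h1c and Hist4h4 (5.26% of all tested genes lay above all others in CAST/EiJ) and PWK/PhJ for Hist2h2aa2, Hist1h4h, Hist1h4j and Hist1h4k (3.29%). It was NZO/HlLtJ for Hist1h2bk (1.37%) and NOD/ShiLtJ for Hist2h2be. Hist1h4j and Hist1h4k reached 10 counts in every library of PWK/PhJ alone and so were tested through the strain where they are high, and these counts are not read further either. In 9 of the 19 at least 1 strain had 3 counts or fewer in every library (11.9% of all tested genes).

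The linker histone signal was almost entirely Hist1h1c, at chr13:23738808-23740367 on the plus strand (M21, GRCm38), which shares 8.5% of its windows with other genes. Its levels in CAST/EiJ were 81.8, 78.0 and 87.3 CPM, and in PWK/PhJ 32.6, 57.4 and 57.9 CPM. C57BL/6J had 22.9, 17.8 and 25.8 CPM, and A/J 12.2, 10.3 and 7.86 CPM. The remaining 5 strains lay between 14.4 and 33.0 CPM. CAST/EiJ was above, and A/J below, every library of the other strains. Against C57BL/6J, Hist1h1c rose by 1.89 ± 0.24 (SE, log2) in CAST/EiJ (edgeR adjusted p 1.52e-06) and by 1.15 ± 0.24 in PWK/PhJ (adjusted p 0.000809). It fell by 1.13 in A/J (SE 0.25, adjusted p 0.0032).

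Hist1h1e (H1.4), the other tested linker histone gene, with 32.0% of its windows shared, was low throughout, with a highest strain mean of 0.571 CPM ± 0.276 (SD, n = 3) in PWK/PhJ. In C57BL/6J it had 4 counts over the 3 libraries. Hist1h1e reached 10 counts in every library of PWK/PhJ alone. It was tested through strains where it is high, so its calls are given as a description. The ratio to C57BL/6J was 11.5 in PWK/PhJ (95% counting interval 4.21 to 43.8, edgeR adjusted p 0.00262) and 10.5 in CAST/EiJ (3.85 to 40.2, adjusted p 0.00292). The call in NZO/HlLtJ (adjusted p 0.0306) was lost without any 1 of 5 libraries, with adjusted p from 0.053 to 0.154.

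Among the H2A genes, Hist2h2aa2 (chr3:96239749-96240276, minus strand) and Hist2h2aa1 (chr3:96245497-96246082, plus strand) form a duplicated pair. All of the 50-base windows of Hist2h2aa2 also occur elsewhere, in Hist2h2aa1, in the read-through transcript gene Gm20634 and, for 39.7% of them, in the processed pseudogene Hist1h2al. Hist2h2aa2 stood at 69.1, 54.5 and 55.2 CPM in PWK/PhJ, 47.7, 38.9 and 42.0 CPM in C57BL/6J, and 31.2, 53.7 and 36.7 CPM in DBA/2J. It stood between 8.44 and 14.5 CPM in NOD/ShiLtJ and at 10.1, 15.4 and 19.9 CPM in A/J. The PWK/PhJ libraries lay above all others, and those of NOD/ShiLtJ overlapped with A/J and with no other strain. Against C57BL/6J it was called lower in 5 strains, with the largest decrease in NOD/ShiLtJ (-1.97 ± 0.28 on the log2 scale, SE, edgeR adjusted p 1.54e-05). The call in WSB/EiJ (adjusted p 0.0244) was lost without C57BL/6J replicate 1 or 4 or WSB/EiJ replicate 3 or 4, with adjusted p from 0.0504 to 0.128, and that in 129S1/SvImJ (0.0083) without 129S1/SvImJ replicate 2 (0.0609).

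These H2A decreases were not called for the sum of the near-identical copies. Hist1h2al, which is not protein coding and so not among the 64, had at most 0.0603 CPM in any library of C57BL/6J, DBA/2J and PWK/PhJ, the 3 strains with the highest Hist2h2aa2. In NOD/ShiLtJ Hist1h2al was at 32.2, 50.2 and 32.1 CPM, and in the other 5 strains between 7.38 and 21.8 CPM. Summed over Hist2h2aa1, Hist2h2aa2 and Hist1h2al, the level was 48.7 CPM ± 2.89 (SD, n = 3) in C57BL/6J and 56.6 ± 15.6 in NOD/ShiLtJ. With this sum in place of the single genes, no strain was called against C57BL/6J, and NOD/ShiLtJ turned to +0.22 ± 0.25 (SE, log2, edgeR adjusted p 0.591). The other 4 stayed below C57BL/6J, at -0.36 in 129S1/SvImJ, -0.73 in A/J, -0.49 in CAST/EiJ and -0.47 in WSB/EiJ. Their edgeR adjusted p ran from 0.0896 to 0.319. The sum still differed among the 9 strains (adjusted p 0.00197), from 29.4 CPM in A/J to 67.0 CPM in PWK/PhJ. Summing only Hist2h2aa1 and Hist2h2aa2 kept all 5 decreases called. How the estimated counts of these copies were divided in each strain was not tested.

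Hist2h2aa1, with 89.4% of its windows shared, was at 1.96 CPM ± 1.16 (SD, n = 3) in WSB/EiJ and between 3.88 and 8.68 CPM in the means of the other strains. Its only call against C57BL/6J, in WSB/EiJ (-1.55 ± 0.46 log2, SE, edgeR adjusted p 0.0226), was lost without C57BL/6J replicate 2 or WSB/EiJ replicate 3 or 4 (adjusted p from 0.104 to 0.12). Gm20634 overlaps Hist2h2aa1 and Hist2h3c1 on the same strand and ranged from 6.68 CPM in 129S1/SvImJ to 18.6 CPM in NZO/HlLtJ. Gm20632, antisense to Hist2h2aa2, ranged from 1.02 CPM in C57BL/6J to 3.82 CPM in PWK/PhJ. The library kit is not stated to keep the strand, so reads of Hist2h2aa2 and Gm20632 cannot be told apart by strand.

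Hist3h2a (chr11:58954685-58956830, plus strand), the H2A gene of the Hist3 cluster with 31.5% of its windows shared, was higher in C57BL/6J than in 6 of the 8 other strains. C57BL/6J had 2.1, 3.05 and 3.04 CPM, WSB/EiJ 1.85, 1.81 and 2.16 CPM, and CAST/EiJ 2.13, 2.02 and 1.66 CPM. NZO/HlLtJ had 0.382, 0.404 and 0.77 CPM, and 129S1/SvImJ 0.806, 0.429 and 0.554 CPM. No library of NZO/HlLtJ or 129S1/SvImJ reached the lowest of C57BL/6J. The log2 change was -2.39 ± 0.40 (SE) in NZO/HlLtJ (edgeR adjusted p 0.000112), -2.18 ± 0.40 in 129S1/SvImJ (0.00037) and -1.92 ± 0.39 in NOD/ShiLtJ (0.00125). The decrease in PWK/PhJ (-1.46) was also called; that in A/J (-1.52, adjusted p 0.013) was lost without A/J replicate 3 (0.0712), and that in DBA/2J (-1.31, 0.0305) without C57BL/6J replicate 2 or 4 or DBA/2J replicate 4 (0.0961 to 0.181). Trim17, a neighbouring gene that overlaps Hist3h2a on the same strand, had 85 counts in all.

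Hist2h2ac, another H2A gene of the Hist2 cluster (38.6% of windows shared), was present in some strains and nearly absent in others. Its levels were 0.904, 0.639 and 1.19 CPM in 129S1/SvImJ, 1.0, 0.445 and 1.18 CPM in NZO/HlLtJ, 0.724, 0.641 and 0.607 CPM in A/J, and 0.551, 0.751 and 0.629 CPM in CAST/EiJ. WSB/EiJ had 0.821, 0.174 and 0.346 CPM. No library of C57BL/6J, DBA/2J, NOD/ShiLtJ or PWK/PhJ exceeded 0.108 CPM, so these 4 strains did not overlap with the other 5. C57BL/6J had 2 counts in all. The ratio to it was 34.4 in 129S1/SvImJ (95% counting interval 9.24 to 289, edgeR adjusted p 0.00036) and 33.1 in NZO/HlLtJ (8.91 to 277, adjusted p 0.000311). The ratios in A/J, CAST/EiJ and WSB/EiJ were 25.4, 25.1 and 17.1, all called.

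The most abundant H2B gene, Hist1h2bc (chr13:23684199-23692908, plus strand), had a smaller range than the other tested genes for which a fold between strain means could be fitted. It is a spliced model without the stem-loop and shares 30.1% of its windows. NZO/HlLtJ had 77.8, 76.5 and 81.2 CPM and A/J 34.3, 31.5 and 23.3 CPM, a 2.64-fold range between the strain means. C57BL/6J had 87.8, 40.5 and 37.2 CPM, so replicate 1 stood apart from the other 2. The call of A/J against C57BL/6J (-0.90 ± 0.25 log2, SE, edgeR adjusted p 0.0236) was lost without that library (adjusted p 0.362), as also without A/J replicate 2 (0.0521) or 3 (0.138). Without C57BL/6J replicate 1, increases were called in NZO/HlLtJ (1.02, adjusted p 0.00119), PWK/PhJ (0.71, 0.0149) and 129S1/SvImJ (0.64, 0.0256).

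Hist1h2bk (chr13:22035870-22036345, plus strand) was at or near 0 in 2 strains. NZO/HlLtJ had 7.52, 8.06 and 8.15 CPM, CAST/EiJ 6.1, 4.39 and 4.72 CPM, and 129S1/SvImJ 5.14, 3.38 and 5.74 CPM. DBA/2J, WSB/EiJ, NOD/ShiLtJ and A/J lay between 1.94 and 5.41 CPM. After rounding, PWK/PhJ had 0 counts in all 3 libraries, and C57BL/6J had 3 counts in replicate 1 (0.094 CPM) and 0 in the other 2. The 7 expressing strains did not overlap with these. NZO/HlLtJ was at least 73.6-fold higher than PWK/PhJ, taking 3 counts per library as the limit, and 203-fold higher than C57BL/6J (95% counting interval 69.4 to 988, edgeR adjusted p 2.84e-10). All 7 strains were called higher than C57BL/6J, with ratios from 66.6 in A/J.

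Hist1h2bk shares 74.2% of its windows, mostly with other H2B genes of the same cluster. The sum over Hist1h2bk, Hist1h2bl, Hist1h2bn, Hist1h2bq, Hist1h2br and Hist1h2bj had the same pattern. It was at 0.117 CPM ± 0.0239 (SD, n = 3) in C57BL/6J, 0.166 ± 0.107 in PWK/PhJ and 3.0 to 9.37 CPM elsewhere. Hist1h2bk gave 80.1% of the counts of this sum, so the sum is no separate result. The summed level in PWK/PhJ was not called different from C57BL/6J (log2 0.58 ± 0.59, SE, edgeR adjusted p 0.513), and the other 7 strains were called higher with adjusted p of 1.36e-08 or lower. Hist1h2bc, which shares 42.9% of the windows of Hist1h2bk, was not part of this sum.

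Hist1h2bl, with 82.8% of its windows shared, varied strongly between libraries of a strain. CAST/EiJ had 0.343, 2.28 and 0.012 CPM, NOD/ShiLtJ 2.27, 0.755 and 2.55 CPM, and C57BL/6J 0 counts after rounding in all 3. NOD/ShiLtJ was at least 15.9-fold higher than C57BL/6J against 3 counts per library (edgeR adjusted p 0.0111). Of the 4 other calls, 129S1/SvImJ (adjusted p 0.0498) was lost without any 1 of 20 libraries (up to 0.14), and CAST/EiJ, DBA/2J and NZO/HlLtJ were each lost without at least 1, with values up to 0.125, 0.0994 and 0.0518. Hist1h2be (16.3% of windows shared) was higher in CAST/EiJ, at 2.31, 1.54 and 2.55 CPM, than in C57BL/6J, at 0.152, 0.363 and 0.567 CPM (log2 2.60 ± 0.53, SE, adjusted p 0.00048). PWK/PhJ, at 1.12, 1.58 and 3.02 CPM, was higher as well (2.46 ± 0.53, adjusted p 0.00118). Hist1h2be and Hist1h1e overlap on the same strand, and 23.8% of the windows of Hist1h1e occur in Hist1h2be, so the calls of both genes in CAST/EiJ and PWK/PhJ are not separate results.

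Hist2h2be (chr3:96221119-96223738, plus strand), an H2B gene whose counts were whole in all libraries and which shared no window with another gene, was highest in NOD/ShiLtJ. Its levels were 3.28, 3.15 and 3.1 CPM there, 2.47, 2.0 and 2.12 CPM in NZO/HlLtJ, 1.13, 1.85 and 1.43 CPM in C57BL/6J and 0.632, 0.403 and 0.598 CPM in WSB/EiJ. The NOD/ShiLtJ libraries lay above all others. Against C57BL/6J it fell by 1.42 in WSB/EiJ (SE 0.33, log2, edgeR adjusted p 0.00398) and by 1.16 in CAST/EiJ (SE 0.32, adjusted p 0.00637). The increase in NOD/ShiLtJ (1.11 ± 0.30, adjusted p 0.013) was lost without C57BL/6J replicate 4 (0.0547), and the decrease in 129S1/SvImJ (-1.04, 0.0234) without C57BL/6J replicate 2 or 4 or 129S1/SvImJ replicate 2 (0.0621 to 0.127).

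**Figure D2:**
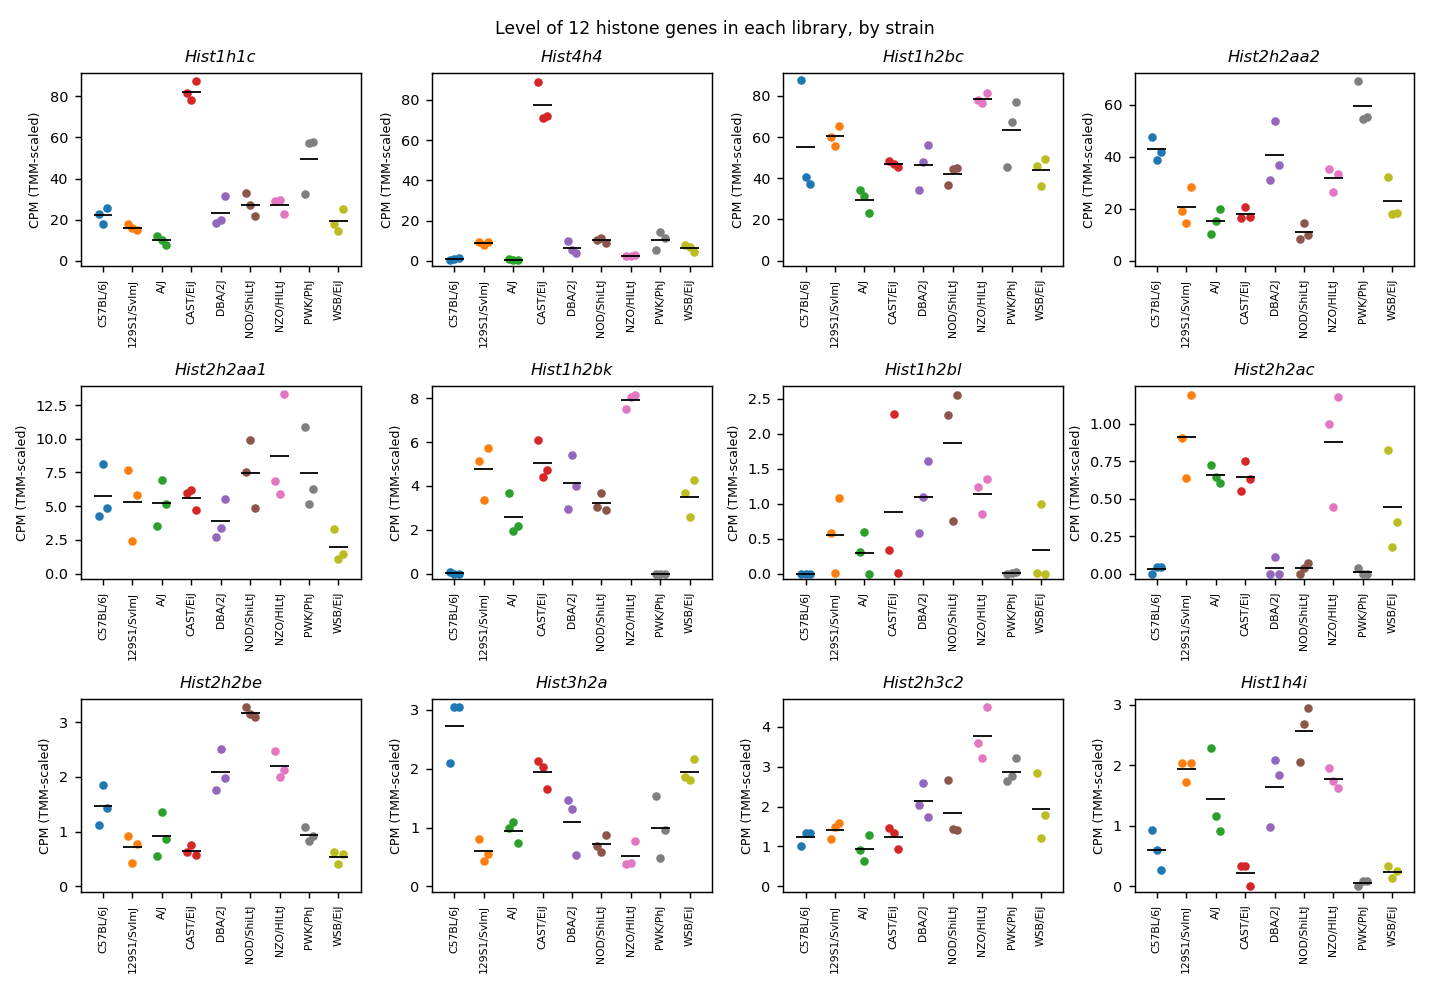
Levels of 12 histone genes are plotted in each library (dots, TMM-scaled CPM on a linear axis that differs between panels) by strain, with the strain mean as a bar. Hist4h4 and Hist1h1c stand highest in CAST/EiJ, at means of 77.4 and 82.4 CPM, and Hist1h2bk is at or near 0 in C57BL/6J and PWK/PhJ.

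Only 1 H3 gene was detected. Hist2h3c2 (chr3:96238108-96239127, minus strand, 63.5% of windows shared) had 3.6, 3.21 and 4.5 CPM in NZO/HlLtJ, 2.64, 2.77 and 3.21 CPM in PWK/PhJ, and 1.01, 1.35 and 1.34 CPM in C57BL/6J. The NZO/HlLtJ and PWK/PhJ libraries all lay above those of C57BL/6J. The log2 change was 1.60 ± 0.31 (SE) in NZO/HlLtJ (edgeR adjusted p 0.000659) and 1.22 ± 0.32 in PWK/PhJ (adjusted p 0.00556). Its near-copy Hist2h3c1, which was left out by the low-count filter, had 0.279, 3.74 and 2.15 CPM in PWK/PhJ and at most 0.332 CPM elsewhere. Summed over Hist2h3c1, Hist2h3c2 and Hist2h3b, the change in PWK/PhJ was 2.00 ± 0.34 (adjusted p 8.04e-05), and that in NZO/HlLtJ 1.61 ± 0.34 (0.00119).

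Among genes for which a fold between strain means could be fitted, the widest range between strain means was that of the H4 gene Hist4h4 (chr6:136801553-136804415, minus strand), whose model runs 2445 bases past the stem-loop and shares 7.1% of its windows. CAST/EiJ had 88.8, 71.1 and 72.2 CPM. PWK/PhJ followed with 5.54, 14.3 and 11.4 CPM, NOD/ShiLtJ with 10.5, 11.1 and 8.73 CPM and 129S1/SvImJ with 9.44, 7.63 and 9.17 CPM. DBA/2J averaged 6.45 CPM ± 3.2 (SD, n = 3), while WSB/EiJ had 7.73, 6.95 and 4.25 CPM and NZO/HlLtJ 2.16, 2.54 and 3.09 CPM.

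C57BL/6J had 0.433, 1.05 and 1.15 CPM of Hist4h4, and A/J 0.735, 0.504 and 0.489 CPM. CAST/EiJ lay above every other library, with a mean 7.43-fold that of the next strain and 134-fold that of A/J. The libraries of C57BL/6J and A/J overlapped with each other and lay below all those of the other 7 strains. Against C57BL/6J, Hist4h4 rose by 6.48 ± 0.39 (SE, log2) in CAST/EiJ (edgeR adjusted p 3.78e-12), and 6 further strains were called higher, from 1.57 ± 0.39 in NZO/HlLtJ (adjusted p 0.00429) to 3.59 ± 0.37 in PWK/PhJ (adjusted p 7.19e-08). These 7 calls held without any single library.

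The H4 genes of the Hist1 cluster were much lower and followed other patterns. Hist1h4i (chr13:22040636-22041362, minus strand, 28.9% of windows shared) had 2.06, 2.68 and 2.95 CPM in NOD/ShiLtJ and 0.934, 0.602 and 0.273 CPM in C57BL/6J. PWK/PhJ had 0 counts in 1 library and 0.0926 and 0.089 CPM in the other 2. The ratio of C57BL/6J to PWK/PhJ was 8.71 (95% counting interval 3.72 to 24.9, edgeR adjusted p 0.00259). The increase in NOD/ShiLtJ (2.07 ± 0.52 log2, SE, adjusted p 0.00779) was lost without C57BL/6J replicate 4 (0.06). Those in 129S1/SvImJ (0.025) and NZO/HlLtJ (0.0273) were each lost without any 1 of 4 libraries (adjusted p up to 0.144 and 0.146).

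Hist1h4h (45.8% of windows shared), by contrast, was highest in PWK/PhJ, at 1.66, 1.52 and 2.5 CPM, and lowest in NOD/ShiLtJ, at 0.177, 0.218 and 0.129 CPM, with 0.95, 0.549 and 0.503 CPM in C57BL/6J. Hist1h4h fell by 1.95 in NOD/ShiLtJ (SE 0.50, log2, edgeR adjusted p 0.00884). The increase in PWK/PhJ (1.49 ± 0.43, adjusted p 0.0113) was lost without C57BL/6J replicate 2 or 4 or PWK/PhJ replicate 3 (0.0537 to 0.0634). Hist1h4j (24.6% shared) had 0.493, 0.508 and 0.661 CPM in PWK/PhJ and at most 0.195 CPM in any other library. It was tested through PWK/PhJ, where it is high, so its call there (adjusted p 0.0173) is given as a description; it was lost without C57BL/6J replicate 1 or 4 or PWK/PhJ replicate 3 (0.0527 to 0.0746). Hist1h4h, Hist1h4j and Hist1h4k share sequence and were summed, with 76.8% of the counts over all libraries from Hist1h4h. The summed level was 3.17 CPM ± 0.558 (SD, n = 3) in PWK/PhJ, where Hist1h4h held 1.9 CPM, and 0.824 ± 0.18 in C57BL/6J. Each of these genes was highest in PWK/PhJ, and Hist1h4j and Hist1h4k were tested through that strain. The change of this sum (log2 1.93 ± 0.39, SE) is therefore given as a description.

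Hist1h4k, Hist1h4n and Hist2h4 stayed under 1 CPM in the mean of every strain, with 71.5%, 85.6% and 1.0% of their windows shared. Hist1h4k was highest in PWK/PhJ (0.718 CPM) and not called in any strain against C57BL/6J. Hist1h4n was called in NZO/HlLtJ, at 0.3, 0.406 and 0.308 CPM against 0 counts in C57BL/6J (at least 2.88-fold, edgeR adjusted p 0.0272), and the call was lost without any 1 of 5 libraries (0.0524 to 0.0831). Its estimated counts in NZO/HlLtJ were 11.78, 16.03 and 9.61. It was thus tested mostly through the strain where it is high, and this call is given as a description. Single libraries of other strains were as high: DBA/2J replicate 3 had 0.481 CPM and NOD/ShiLtJ replicate 3 0.361 CPM. Its difference among strains was lost with DESeq2 (adjusted p 0.0589).

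Each strain was set against C57BL/6J over the 19 tested genes, and the 8 comparisons share the C57BL/6J libraries. Beside each count stand the shares of all 14482 tested genes called either way, higher and lower. In 129S1/SvImJ 8 of the 19 were called, 5 higher and 3 lower (20.9%, 9.20% and 11.7%). In A/J 6 were called, 2 higher and 4 lower (7.84%, 3.81% and 4.03%). In CAST/EiJ 9 were called, 7 higher and 2 lower (38.0%, 18.4% and 19.7%). DBA/2J had the fewest calls, 3 higher and 1 lower (9.06%, 4.90% and 4.16%), while NOD/ShiLtJ had 5 higher and 3 lower (15.9%, 7.39% and 8.51%). NZO/HlLtJ had 8 higher and 1 lower (29.3%, 13.2% and 16.2%), and PWK/PhJ 7 higher and 2 lower (26.2%, 12.5% and 13.7%). WSB/EiJ had 3 higher and 3 lower (13.6%, 6.88% and 6.76%). The higher calls include Hist1h4j in PWK/PhJ, Hist1h4n in NZO/HlLtJ, and Hist1h1e in both and in CAST/EiJ. These genes were tested through strains where they are high, so the counts are not read further.

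The median log2 change, with genes at 0 in C57BL/6J set to their bound and genes at 3 counts or fewer in both strains left out, was highest in NZO/HlLtJ. It was 1.23 over 19 genes there, with 17 above 0, against a median of 0.01 over all tested genes. It was 1.15 over 15 genes in PWK/PhJ, 0.65 over 16 in DBA/2J, 0.46 over 16 in CAST/EiJ and 0.37 over 15 in NOD/ShiLtJ. In 129S1/SvImJ, WSB/EiJ and A/J it was 0.05, -0.06 and -0.26. These medians depend on how the low genes are treated: with the fitted values of all 19 genes they were 0.47 in PWK/PhJ, 0.51 in DBA/2J, 0.00 in CAST/EiJ and 0.33 in NOD/ShiLtJ, and 1.23 again in NZO/HlLtJ. C57BL/6J held 3 counts or fewer in every library of Hist1h1e, Hist2h2ac, Hist1h2bk, Hist1h2bl, Hist1h4j, Hist1h4k and Hist1h4n, so its own low levels enter each comparison of these genes. These genes passed the low-count filter through other strains, which tilts their changes against C57BL/6J upward. Hist1h4j and Hist1h4k passed it through PWK/PhJ. The medians and the number above 0 are therefore given as a description and not read further.

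**Figure D3:**
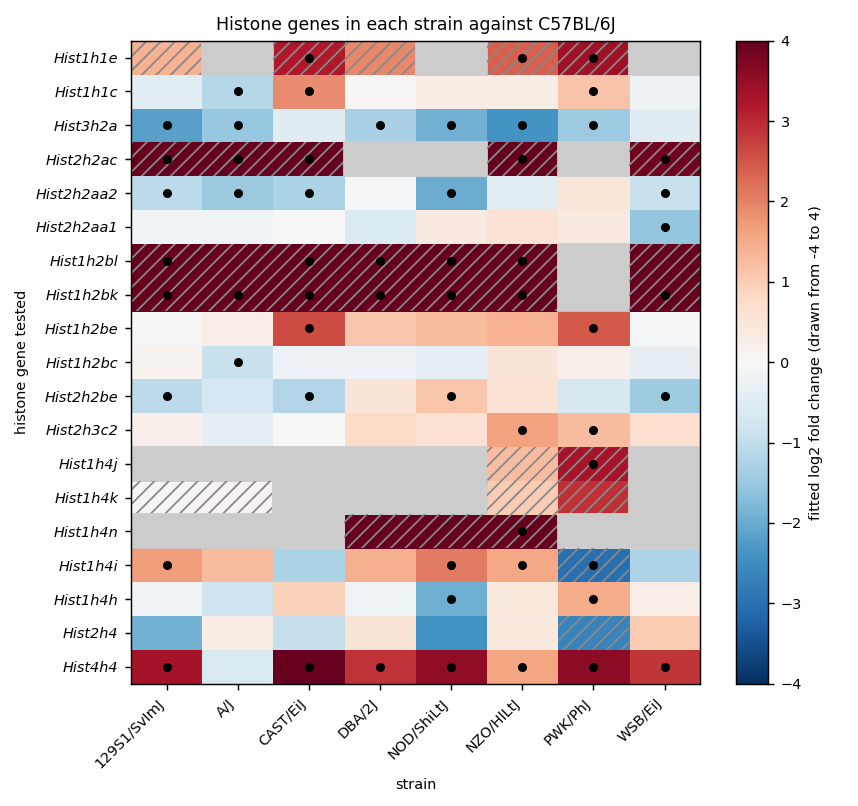
Fitted log2 fold changes of the 19 tested histone genes (rows, ordered by class from H1 to H4) in 8 strains against C57BL/6J are drawn in colour, limited to -4 and 4. Dots mark calls at an adjusted p under 0.05, hatching marks folds against a group with 3 counts or fewer in every library, whose colour is no bound, and grey marks pairs where both groups were that low. Hist4h4 is called higher in 7 strains, and Hist3h2a lower in 6.

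Summed by class, the strains ranked differently for each kind of histone. The summed H1 level was 83.0 CPM ± 4.53 (SD, n = 3) in CAST/EiJ and 10.3 ± 2.27 in A/J, an 8.09-fold range, with 98.7% of the counts from Hist1h1c. The H4 sum ran from 2.74 ± 0.208 in C57BL/6J to 79.0 in CAST/EiJ (libraries from 73.1 to 90.6), a 28.8-fold range, with 83.7% of counts from Hist4h4. Without Hist4h4 the order turned: NZO/HlLtJ was the highest strain of the H4 sum and CAST/EiJ the lowest, 2.33-fold apart.

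The H2B sum was highest in NZO/HlLtJ (91.1 CPM ± 3.09) and lowest in A/J (34.1 ± 6.51), 2.67-fold apart, with 88.4% of counts from Hist1h2bc. Without Hist1h2bc, NZO/HlLtJ was 6.02-fold above C57BL/6J, then the lowest strain. The H2A sum was highest in PWK/PhJ (68.4 ± 11.8) and lowest in NOD/ShiLtJ (19.3 ± 5.17), 3.55-fold apart, with 78.9% of counts from Hist2h2aa2. This sum leaves out the pseudogene Hist1h2al, and how counts were divided among the similar copies was not tested. The H3 sum ran from 1.15 ± 0.443 in A/J to 5.37 ± 1.97 in PWK/PhJ, with 80.1% of counts from Hist2h3c2. Without Hist2h3c2 the fold between the highest and lowest strain in the summed level of H3 genes was 18.8, with PWK/PhJ highest and 129S1/SvImJ lowest. That fold is against a level near 0: no other H3 gene exceeded 2.55 estimated counts in a 129S1/SvImJ library. In PWK/PhJ the near-copy Hist2h3c1 had 0.279, 3.74 and 2.15 CPM. In each class the libraries of the highest and the lowest strain did not overlap. Over all 64 genes, CAST/EiJ had 246 CPM ± 10.9 and A/J 70.8 ± 4.1.

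**Figure D4:**
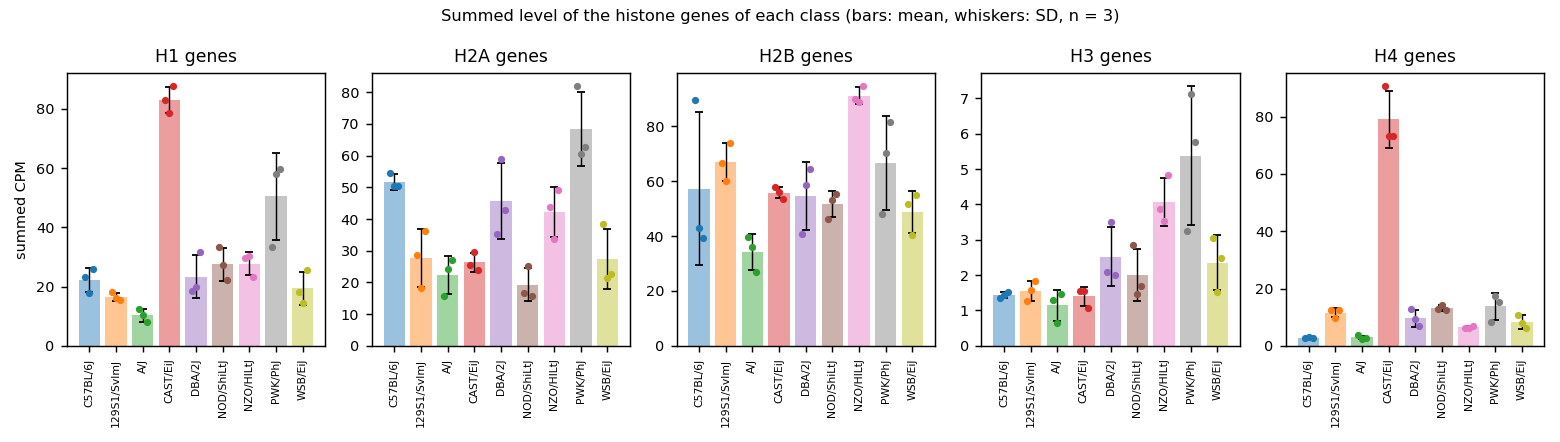
Summed CPM of the histone genes of each class is shown by strain as the mean (bar), the SD (whisker, n = 3) and the 3 libraries (dots), on linear axes that start at 0 and differ between panels. CAST/EiJ is highest for H1 (83.0) and H4 (79.0), PWK/PhJ for H2A (68.4) and H3 (5.37), and NZO/HlLtJ for H2B (91.1).

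Many H2A and H2B genes lie head to head and have starts close to each other. Among the 64 genes there were 12 such pairs with starts within 1000 bases, at a median of 260. In 8 pairs neither gene was detected, in 3 pairs 1 was, and in 1 pair both were. Hist1h2ac and Hist1h2bc start 251 bases apart and averaged 0.0858 and 51.8 CPM over the 27 libraries. Hist2h2ac and Hist2h2be start 239 bases apart, averaged 0.405 and 1.41 CPM, and had different patterns: NOD/ShiLtJ, the highest strain for Hist2h2be (3.18 CPM ± 0.0911, SD, n = 3), had 0.0355 ± 0.0355 CPM of Hist2h2ac. In 129S1/SvImJ, Hist2h2ac was at 0.910 CPM ± 0.275 and Hist2h2be at 0.714 ± 0.257. The difference between the 2 patterns was not tested.

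The stretches between the starts of these pairs are shown because each faces both genes. They are RefSeq promoter sequences (GRCm38.p6) on the plus strand, with capitals at matches, on either strand, to CCAAT (known as the CCAAT box), to TATAAA (the TATA box) and to the octamer ATGCAAAT, all known from histone promoters.

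Hist2h2ac to Hist2h2be, chr3:96220881-96221118: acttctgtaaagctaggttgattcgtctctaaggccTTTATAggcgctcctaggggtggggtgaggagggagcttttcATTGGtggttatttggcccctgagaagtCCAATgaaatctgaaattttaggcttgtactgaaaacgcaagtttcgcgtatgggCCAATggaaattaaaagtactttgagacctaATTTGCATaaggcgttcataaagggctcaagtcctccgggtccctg
Hist1h2ac to Hist1h2bc, chr13:23683949-23684198: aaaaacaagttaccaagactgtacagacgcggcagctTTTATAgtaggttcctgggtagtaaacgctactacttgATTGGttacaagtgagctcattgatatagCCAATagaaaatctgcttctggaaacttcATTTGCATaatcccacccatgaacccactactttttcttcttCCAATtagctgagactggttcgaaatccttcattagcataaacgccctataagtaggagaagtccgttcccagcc

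Each stretch held 3 matches to CCAAT, 1 to TATAAA and 1 to ATGCAAAT. None of these 3 strings contains another. RefSeq promoters (250 bases before to 50 after the start) were matched for 59 of the 64 genes. CCAAT stood in 84.7% of them against 37.4% of all 32851 promoters, TATAAA in 59.3% against 13.6%, and ATGCAAAT in 20.3% against 1.7%. By class, CCAAT was in all promoters of the H1, H2A, H2B and H3 genes and in 3 of 12 of the H4 genes. ATGCAAAT was in 7 of 18 H2A and 5 of 13 H2B promoters. These are matches of letters and not measured sites.

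Genes that make or act on histone mRNA varied little in sum. Of 19 genes for factors of histone pre-mRNA processing, transcription and decay, 18 were tested and 14 differed among strains, against 74.2% of all genes. Their summed level was lowest in PWK/PhJ (274 CPM) and highest in NZO/HlLtJ (362 CPM), 1.32-fold apart. Mif4gd, which takes part in the translation of histone mRNA with SLBP, was highest in CAST/EiJ at 42.4 CPM ± 6.56 (SD, n = 3), 2.11-fold the level of PWK/PhJ (edgeR adjusted p 6.53e-06). Sympk, a scaffold of the 3′ end cleavage complex, ranged from 38.6 in NOD/ShiLtJ to 59.9 CPM in WSB/EiJ (adjusted p 1.8e-05). Slbp, Npat and Casp8ap2, singled out after their values were seen, were not called (adjusted p 0.0601, 0.191 and 0.0661).

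Replication-independent variant genes, most of which are polyadenylated and expressed outside S phase, gave 8 called of 10 tested, near the 74.2% of all tested genes. Their sum ran from 282 CPM in A/J to 356 CPM in NZO/HlLtJ, 1.26-fold. H3f3b, which encodes H3.3, ranged from 47.2 CPM in A/J to 95.7 CPM in NZO/HlLtJ (edgeR adjusted p 0.000264), and H2afz, which encodes H2A.Z, from 18.4 in CAST/EiJ to 36.4 CPM in PWK/PhJ (adjusted p 0.000753).

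Of 25 S phase genes, 24 were tested and 20 differed among strains, a share near the 74.2% of all tested genes. In NZO/HlLtJ 12 were called higher and 1 lower than in C57BL/6J, where 13.2% and 16.2% of all genes were. Chaf1b, a subunit of the chromatin assembly factor CAF-1, ranged from 0.468 CPM ± 0.0709 in 129S1/SvImJ to 4.03 ± 1.05 in CAST/EiJ (SD, n = 3, edgeR adjusted p 1.51e-06). The summed level was lowest in A/J (94.7 CPM, libraries from 79.4 to 109) and highest in NZO/HlLtJ (154 CPM ± 11.6), which were also the lowest and highest strains of the H2B sum. In CAST/EiJ, the highest strain for Hist1h1c and Hist4h4, it was 111 ± 7.69, with libraries of C57BL/6J from 97.2 to 104 CPM. Of the 7 genes of G2 and mitosis 5 were called, also near that share. In some strains their sum varied widely: the mean of 11.4 CPM in DBA/2J came from libraries between 3.74 and 24.1 CPM, and 129S1/SvImJ had 1.36 CPM ± 0.431 (SD, n = 3). The part of cycling cells in the histone levels was not tested.

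The levels of markers of other liver cells are given beside these values. All 10 Kupffer cell markers were tested and called among strains (74.2% of all tested genes were), with summed means from 57.3 CPM in 129S1/SvImJ to 236 CPM in C57BL/6J and libraries from 33.4 to 414 CPM. All 10 endothelial markers were called, from 75.3 CPM in NZO/HlLtJ to 386 CPM in PWK/PhJ, with PWK/PhJ libraries from 209 to 699 CPM. Of 10 stellate cell markers 6 were called, beside 74.2% of all tested genes, with summed means from 41.1 in NZO/HlLtJ to 153 CPM in PWK/PhJ. Of the erythroid markers 4 of 6 tested were called, beside the same 74.2%. Their sum was lowest in CAST/EiJ (4.78 CPM) and highest in NZO/HlLtJ (30.2 CPM), with Epb42 at 0 throughout. The 10 lymphocyte markers summed to 0.206 to 1.74 CPM, with 1 tested and not called among strains. Differences between these shares were not tested. PWK/PhJ, where the H2A and H3 sums were highest, was also the highest strain for endothelial and stellate markers. The part of these cells in the histone levels was not tested. In CAST/EiJ the Kupffer sum was 62.5 CPM ± 5.85 (SD, n = 3) and the endothelial sum 121 ± 54.7, both below C57BL/6J at 236 ± 34.3 and 211 ± 61.5.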

How the data were processed

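The authors deposited a table of estimated counts per Ensembl gene for 27 libraries, not scaled to depth. The labels' protocols give oligo-dT selection and a TruSeq RNA kit. The submitters' processing notes name FastQC 0.11.5, DESeq2 and the builds GRCm38 and mm10; the aligner and counting program are not given in the sources used here, nor whether reads were aligned to a genome of each strain.

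Before fitting, the estimates were rounded to the nearest whole number; no library total moved by more than 0.00026%. In R 4.3.3, edgeR 4.0.16 (limma 3.58.1) filtered genes with filterByExpr by strain, leaving 14482, and scaled them with TMM factors (0.7219 to 1.226). A quasi-likelihood model over all 27 libraries tested strain as a whole and each strain against C57BL/6J; p-values were adjusted over all genes (Benjamini-Hochberg, called under 0.05). The fits were tested on simulated data.

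Against a group with 0 counts in all libraries, a fold was computed from 3 counts per library and is a lower bound; with a few counts, the ratio has an exact 95% interval. Both cover counting error only. Gene type, symbols, positions, stem-loops and 50-base windows come from GENCODE M21. Named were the genes averaging at least 1 CPM in a strain, the 12 with the largest F in full, each strain's largest called increase and decrease, genes above all other strains, genes beside the detection limit and called list genes of large F. Alternatives were DESeq2 1.42.0, RLE size factors, plain totals, 2 other filters, rounding down or none, a replicate factor, fits on 6 libraries and leaving out each library; sums over similar genes were added after seeing the data. The members and lists were chosen with earlier results of these data known. Replicate numbers did not pair the libraries.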

Additional observations from a re-analysis of the deposited data

How the results depend on the processing

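All 19 tested genes differed among strains with RLE size factors and with counts rounded down, 18 with DESeq2 (Hist1h4n lost), all 14 tested with a filter at a mean of 10 counts, 23 of 60 with no filter, and 19 to 21 with each library left out. The number detected was 17, 60 with 1 count in 1 library as the limit, and 17 to 18 with each library left out. Against C57BL/6J, the 8 calls in 129S1/SvImJ became 5 to 8 and the 4 in DBA/2J 2 to 5 with each library left out. Of the 59 calls, 19 were lost without at least 1 library, 3 in the fits on 6 libraries, 2 with DESeq2 and 0 without rounding. The fold between the highest and lowest strain moved as follows. For H1 it was 11.1 with plain library totals and 7.26 to 9.06 with each library left out. For H2A it was 2.3 without its most abundant gene (3.19 to 4.19 leaving out libraries). For H2B it was 3.84 with plain totals and 6.02 without its most abundant gene (2.42 to 2.9). The fold between the highest and lowest strain in the summed level of H3 genes was 18.8 without their most abundant gene, against a level near 0 in 129S1/SvImJ (3.85 to 5.61 leaving out libraries). For H4 it was 36.8 with plain totals and 2.33 without Hist4h4 (26.7 to 30.1). Hist2h2aa2 in NOD/ShiLtJ turned from -1.97 to 0.22 summed with Hist2h2aa1 and Hist1h2al, and to 0.28 with Gm20634 added; the cause was not tested.

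The replicate numbers did not pair the libraries: deviations of same-numbered libraries correlated at 0.01 on average (-0.293 to 0.275), and 7 of 27 libraries correlated best with their own number. With the replicate block, 17 genes differed among strains, Hist1h4k (adjusted p 0.0522) and Hist2h4 (0.0569) being lost, and 6 of the 59 calls were lost. Most genes left out by the filter held few counts, which limits the precision of their folds; Hist2h3c1, with 108.87 and 64.72 estimated counts in PWK/PhJ replicates 2 and 3, was an exception.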

Other observations

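Hist1h2al, the processed H2A pseudogene, was called higher than C57BL/6J in 6 strains and was at 0 to 1 count in every library of C57BL/6J, DBA/2J and PWK/PhJ; its values were non-whole in all 27 libraries. The genes Hist1h2bk and Hist1h2bl, both H2B genes of the Hist1 cluster, were low together in C57BL/6J and PWK/PhJ, while the neighbouring H4 gene Hist1h4i was low in PWK/PhJ, CAST/EiJ and WSB/EiJ, at 0.0605, 0.229 and 0.246 CPM. Hist2h2ac was low in the 3 strains with little Hist1h2al and in NOD/ShiLtJ.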
